A study of Mus musculus with 168 samples.

Results

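Striatum astrocytes of old mice were set against the cells of the subventricular zone (SVZ) that carried little ribosomal protein mRNA. The SVZ lines the lateral ventricle and keeps neural stem cells into old age. All 13 striatum cells were used, 11 named OGStr and 2 named OStr in the labels. The 76 SVZ cells were those of 133 in which cytosolic ribosomal protein genes held below 2% of all TPM, a share called R here (TPM is the deposited unit, a transcript level per length), and 30 of them belong to the ogp series and 46 to the ogp2 series. The 89 cells compared are part of 150 single cells with values.

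Every group came from male C57BL/6 mice with no genetic change or treatment named. The SVZ cells are labelled Old_NSC at 23 months of age (their protocol says 22) and were sorted as CD45-O4-CD133+GLAST+. The striatum cells are labelled Old_astrocyte at 25 months and were sorted as GLAST positive and CD45/O4 negative, with the SVZ left out of the dissection. Cells were picked by hand and their poly(A) RNA was made into libraries by Smart-seq2, a full-length method without molecular identifiers. The protocol describes SVZ tissue pooled from several mice, no animal is named for any cell, and so each group counts as 1 sample. The comparison therefore carries no test, and every standard deviation (SD) below is the spread between cells. Age label, sorting gate, dissection and library table all differ between striatum and SVZ cells, so their parts in any difference cannot be told apart. The contrast was also chosen with its values known, and what follows describes it.

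The values that chose the SVZ cells were R alone. R ran from 0.659 to 1.99% in the 76 cells, with a median of 1.54%, and the low-ribosome group is a range of this share, not a cell type. The last cell inside had R of 1.988% and the first outside 2.011%, and 7 cells lay within 0.1 percentage points on each side. In striatum cells R had a median of 1.63% and ran from 0.860 to 2.97%, and 3 of the 13 cells were at 2% or above. Both OStr cells were among these, at 2.41 and 2.97%.

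**Figure D1:**
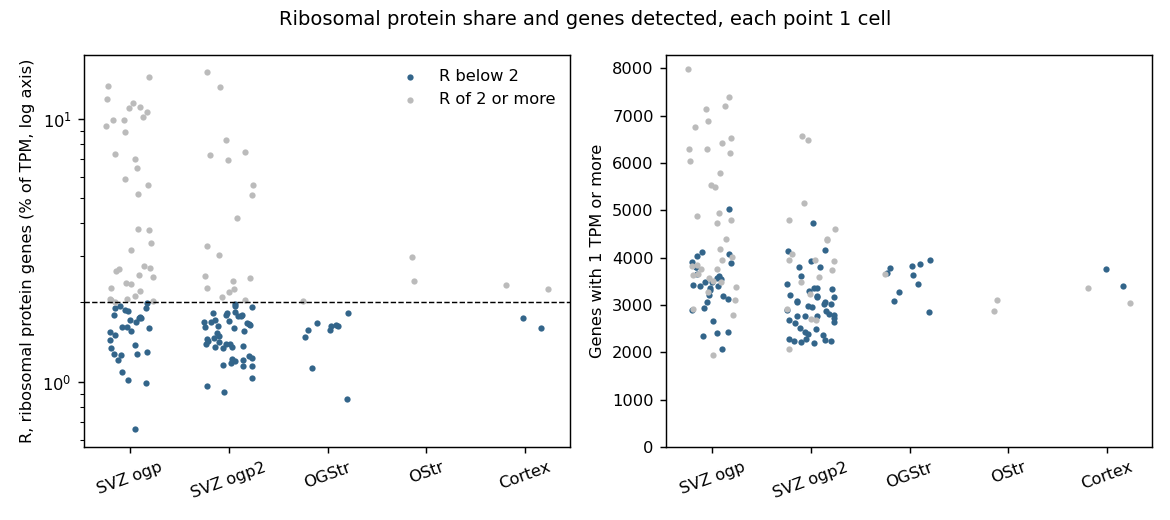
Ribosomal protein share of all TPM (left, percent on a log axis, dashed line at 2%) and number of genes with 1 TPM or more (right) in every single cell, by group. Blue points are cells with R below 2 and grey points those at 2 or above, and both OStr cells lie above the line at 2.41 and 2.97%.

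The striatum libraries listed a median of 3636 genes at 1 TPM or more (2860 to 3944) and the low-ribosome SVZ libraries 3095.5 (2066 to 5033). Read counts cannot be had from TPM, and the depth of each library is unknown. Gm42418, a predicted transcript that overlaps ribosomal RNA sequence, held 20251 to 64985 TPM in striatum cells and 278 to 3900 TPM in SVZ cells, without overlap. Rn7s1, a 7S RNA, had a mean of 23.4 TPM in striatum cells and 3017 TPM in SVZ cells. The nuclear RNA Malat1 had means of 44434 and 27205 TPM. The part of these transcripts in the results below was not tested, and values with Gm42418, Rn7s1 and Rn7s2 taken out are in the closing section.

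Astrocytes and quiescent neural stem cells of the SVZ are close relatives: both take up glutamate through GLAST, are coupled by connexins and make apolipoproteins. What is known to set stem cells apart is their niche and their response to growth factors. Bone morphogenetic proteins (BMPs) act through receptor kinases and Smad proteins on the Id genes, which encode inhibitors of DNA-binding helix-loop-helix factors and are linked to quiescence and to astrocyte identity. Astrocytes are also the main makers of cholesterol in the adult brain, under the transcription factor SREBP2, and they respond to glucocorticoids.

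A gene entered when its mean was 10 TPM or more in either group, which 8691 genes met. Each difference is log2 of (mean TPM in striatum + 1) over (mean TPM in low-ribosome SVZ + 1). With that measure the striatum mean exceeded the SVZ mean at least 4-fold for 463 genes (5.33%) and was at least 4-fold lower for 1063 genes (12.2%). At 2-fold the counts were 1367 genes (15.7%) higher and 2038 genes (23.4%) lower, and the median over all genes was -0.11. Many of these genes were sparse: 444 of the 1063 were listed at 0 in every striatum cell, and 266 of the 463 reached 1 TPM in only 1 or 2 striatum cells. Among the 6050 genes with 10 TPM in both groups the split was nearly even, with 566 (9.36%) at least 2-fold higher and 655 (10.8%) at least 2-fold lower. A second description, the pair share, is the percentage of all striatum-SVZ cell pairs in which the striatum cell had the higher value, with ties counted as 0.5. It was 80% or more for 19 genes (0.219%) and 20% or less for 27 genes (0.311%).

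**Figure D2:**
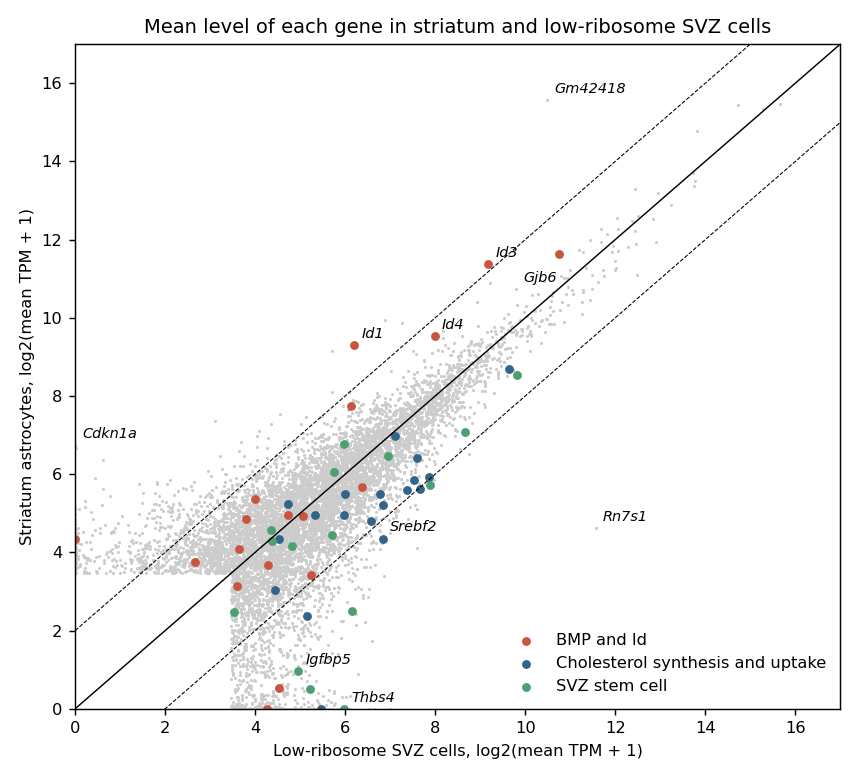
Mean level of each of 8691 genes in low-ribosome SVZ cells (x) and striatum astrocytes (y), both as log2(mean TPM + 1). The solid line is equality, dashed lines are 4-fold, and coloured points are the members of 3 gene lists. Id1 and Id3 lie above the upper dashed line, and Srebf2, Igfbp5 and Thbs4 below the lower one.

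The general astrocyte genes were present in both groups. Slc1a3, which encodes GLAST, was listed in every cell at 3317 ± 1172 TPM (SD, n = 13 cells) in striatum and 4244 ± 1551 TPM (SD, n = 76 cells) in SVZ, and the ranges overlapped. Slc1a2, the main glutamate transporter, stood at 842 ± 318 and 966 ± 420 TPM, and Apoe, the brain's chief apolipoprotein, at 41039 ± 9924 and 39735 ± 12960 TPM. Aqp4, a water channel, reached 1 TPM in 12 of 13 striatum cells, Aldh1l1, a folate enzyme, in 11, and S100b, a calcium-binding protein, in 10. Of 23 genes on the mature astrocyte list, all of which entered, 0 were 2-fold higher and 3 were 2-fold lower, against all-gene shares of 15.7 and 23.4%. Their median was -0.22 against -0.11 for all genes. A pair share of 20% or less was found for 4 of the 23, against 0.311% of all genes, and one of 80% or more for 0. Mfge8, Plpp3 and Slc7a10, given below, are on this list.

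Transcripts of the other gates and of other cell types were low. Ptprc, the gene of CD45, was below 1 TPM in all 89 cells. Prom1, the gene of CD133, for which the SVZ cells were sorted, was listed at 0 in all striatum cells and reached 1 TPM in 2 of 76 SVZ cells. The 11 endothelial markers together held at most 0.00081% of TPM in a striatum cell and 0.00149% in an SVZ cell, and Pecam1, Cldn5 and the others did not reach 10 TPM in either mean. Markers of microglia held a median of 0.0109% in striatum cells and 0.000221% in SVZ cells, with highest values of 0.0514 and 0.0871%, and 10 of the 12 were at 0 in every striatum cell. Markers of striatal neurons held 0.0272% and 0.0302% at the median. One of them, Ppp1r1b, which encodes DARPP-32, was detected in 12 of 13 striatum and 57 of 76 SVZ cells, at means of 320 and 303 TPM. Markers of ependymal cells held 0.0244 and 0.0347%, of oligodendrocytes 0.0155 and 0.0109%, and of neuroblasts 1.5e-05 and 9e-06%. Of the 23 genes of G2 and M phase 0 entered, and Mki67, a marker of cycling cells, was listed at 0 in all striatum cells and below 1 TPM in all SVZ cells.

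Id genes, the direct targets of BMP signalling, had higher means in the striatum astrocytes. Id3 (chromosome 4, 136143497 to 136145755 on GRCm38) was listed in all 13 striatum cells at 208 TPM at the lowest, 2012 at the median and 7945 at the highest, and in SVZ cells at 0, 328 and 3323 TPM. The means were 2650 and 580 TPM, a log2 difference of 2.19 and a pair share of 86.4%. All 11 OGStr cells were at 1400 TPM or above, while the OStr cells had 269 and 208 TPM, below the SVZ median. Id1 reached 1 TPM in 10 of 13 striatum cells and 16 of 76 SVZ cells, with means of 629 and 72.5 TPM (log2 difference 3.10). Both OStr cells were listed at 0 for Id1, and leaving out OGStr replicate 30, which held 3673 TPM, gave 2.36. Id4 stood at 105.7, 892 and 1240 TPM in striatum and 0, 225 and 1131 TPM in SVZ (lowest, median and highest), a log2 difference of 1.54 with a pair share of 86.6%. Id2 had the smallest difference of the 4, with means of 3189 and 1712 TPM (0.90) and widely overlapping cells.

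The rest of the BMP pathway did not move as one. Of 34 genes 18 entered, of which 8 were 2-fold higher and 3 were 2-fold lower, against all-gene shares of 15.7 and 23.4%, with a median of 0.67. This median rests on 1 cell: without OGStr replicate 29 it was -0.06. Over the 12 genes with 10 TPM in both groups the median was 0.99, a value not repeated with single cells left out. Of these, 6 were 2-fold higher, Id1, Id3 and Id4 among them, and 0 lower, against 9.36 and 10.8% of all such genes. The list's share of all TPM, to which the Id genes add most, had a median of 0.618% in striatum and 0.270% in SVZ cells, with OStr cells at 0.183 and 0.108%. Among the ligands Gdf10, a BMP family member made by astrocytes, was detected in 10 of 13 striatum and 28 of 76 SVZ cells, with means of 212 and 69.1 TPM. The type I receptors were close, with Bmpr1a at 29.4 and 32.2 TPM and Bmpr1b at 50.2 and 82.4 TPM. Without OGStr replicate 29 the log2 difference of Bmpr1b went from -0.70 to -1.49. Chrdl1, a secreted BMP inhibitor, had means of 29.9 and 25.4 TPM. Smad4, the shared Smad of the pathway, was listed at 0 in 13 striatum cells and detected in 14 of 76 SVZ cells. A count of 0 of 13 cells allows a share of up to 23.1%, the limit for a count of 0 here being 3 over the number of cells. Detection in 14 of 76 cells is 18.4% (Clopper-Pearson 95% interval 10.5 to 28.97%, counting error only). At this number of cells a difference in Smad4 was therefore not detectable.

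**Figure D3:**
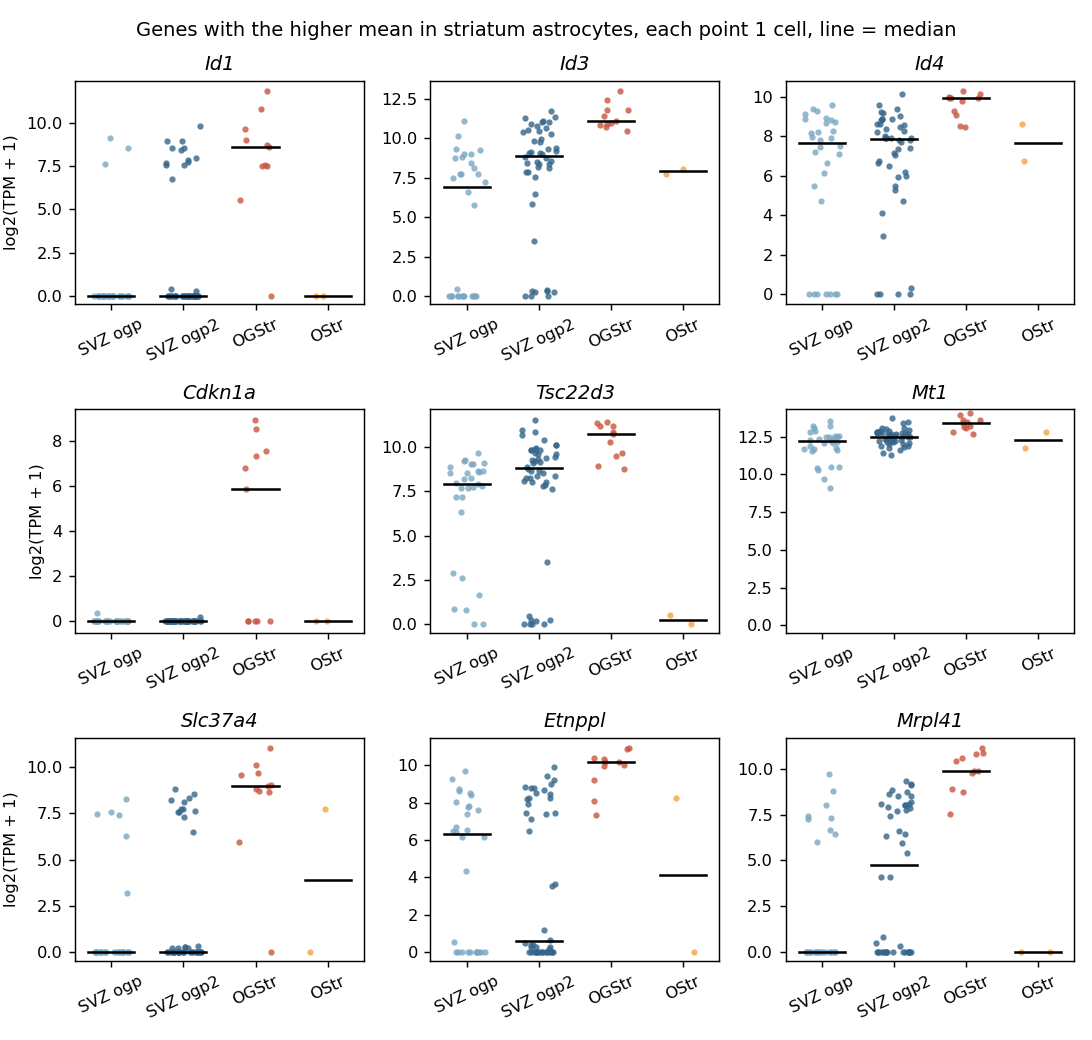
Level of 9 genes with the higher mean in striatum astrocytes, as log2(TPM + 1), in each low-ribosome SVZ cell (ogp and ogp2) and each OGStr and OStr cell. Black lines are medians. Id3 is at 1400 TPM or more in all 11 OGStr cells and at 269 and 208 TPM in the OStr cells. Cdkn1a reaches 1 TPM in 6 OGStr cells and in no low-ribosome SVZ or OStr cell.

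Cdkn1a (chromosome 17, 29090976 to 29100727), which encodes the cell cycle inhibitor p21, was detected in 6 of 13 striatum cells, a share of 46.2% (95% interval 19.2 to 74.9%). In those 6 cells, all OGStr, it held 56.7 to 490 TPM. In the 76 SVZ cells it never passed 0.3 TPM, and 0 of 76 allows a share of up to 3.95% of cells at 1 TPM. These limits cover counting error only, treat cells as independent and do not bound the share of cells that express the gene. The log2 difference of Cdkn1a was 6.73 and ran from 2.47 to 7.11 over the alternatives of the closing section. All 6 cells with Cdkn1a also had Id1, Tsc22d3 and Per1, which were detected in 10, 11 and 8 of the 13 striatum cells. Of the 6, 5 had Gdf10, 4 Sult1a1 and 4 Hey2, which were detected in 10, 10 and 8 of the 13. Kcnj16, detected in 4 of the 13, was in 2 of the 6, and Fkbp5, detected in 2, was in 1. Of the 28 genes of the kinase inhibitor and p53 list 18 entered, and their median was -0.07. Of these, 1 (Cdkn1a) was 2-fold higher and 3 were lower, against all-gene shares of 15.7 and 23.4%. Cdkn1b, the gene of p27, had means of 28.4 and 15.3 TPM.

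Genes of the glucocorticoid response were more often higher than lower. Of 18 genes 14 entered, of which 5 were 2-fold higher and 1 was 2-fold lower, against all-gene shares of 15.7 and 23.4%, with a median of 0.56. Over the 9 genes with 10 TPM in both groups the median was 0.42. Of these, 2 were 2-fold higher and 0 lower, against 9.36 and 10.8% of all such genes. Mt1, given with the metallothioneins below, is also on this list and adds most of its joint share of TPM. That share was 1.35% at the striatum median and 0.772% at the SVZ median, with the OStr cells at 0.438 and 0.845%. Tsc22d3, which encodes the anti-inflammatory protein GILZ, stood at 1587 TPM on average in OGStr cells and 486 TPM in SVZ cells, but at 0 and 0.41 TPM in the OStr cells. Per1, a clock gene that also responds to glucocorticoid, was detected in 8 of 13 striatum and 22 of 76 SVZ cells, at means of 38.2 and 5.75 TPM. Sult1a1, a phenol sulfotransferase, was detected in 10 of 13 and 20 of 76 cells, at 396 and 128 TPM, and here the OStr cells, at 359 and 255 TPM, lay with the OGStr cells. Fkbp5, a chaperone of the receptor, was found in only 2 striatum and 2 SVZ cells. The receptors differed from each other: Nr3c1, the glucocorticoid receptor, had means of 41.4 and 31.6 TPM, and Nr3c2, the mineralocorticoid receptor, 4.68 and 51.1 TPM, with 2 of 13 and 40 of 76 cells detected. Without OGStr replicate 8 the log2 difference of Nr3c2 went from -3.20 to -5.41. Hsd11b1, which regenerates active corticosterone, had means of 158 and 228 TPM.

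Metallothioneins, small proteins that bind zinc and copper, had higher means in striatum. Mt1 was at 10034 ± 3741 TPM (SD, n = 13 cells) in striatum and 5539 ± 2512 TPM (SD, n = 76 cells) in SVZ, a log2 difference of 0.86 with a pair share of 85.2%. Mt2 had means of 1973 and 1361 TPM and Mt3 of 3284 and 2475 TPM. The 14 genes of metal handling, 12 of which entered, had a median of 0.44, and 2 were 2-fold higher and 2 lower, near or below the all-gene shares of 15.7 and 23.4%. Their joint share of TPM was higher in the striatum cell in 90.8% of pairs.

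Genes of cholesterol synthesis and uptake were mostly lower in striatum astrocytes. Hmgcs1, Idi1, Insig1 and Srebf2 are shown, with Mt1, by the bases before their start sites, taken from RefSeq on GRCm38.p6, because both groups of genes have well known upstream elements. Motifs were searched on both strands of the 250 bases before the start. They were CCAAT (the NF-Y box, read ATTGG on the other strand), TCACNCCAC (the core of a sterol regulatory element) and GNACA followed by any 3 bases and TGTNC (a glucocorticoid receptor palindrome). Capitals mark the matches that fall in the bases shown. Hmgcs1 had 4 matches in its 250 bases, some of them outside the stretch shown. All stretches are on the plus strand and 120 bases long, and the motifs were chosen after the values were seen. The stretches are chr13:119690152-119690271 for Hmgcs1, chr13:8885486-8885605 for Idi1, chr5:28071162-28071281 for Insig1, chr15:82147076-82147195 for Srebf2 and chr8:94178941-94179060 for Mt1.
Hmgcs1: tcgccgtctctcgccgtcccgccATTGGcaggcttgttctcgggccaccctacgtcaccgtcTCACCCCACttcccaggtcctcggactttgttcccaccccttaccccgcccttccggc
Idi1: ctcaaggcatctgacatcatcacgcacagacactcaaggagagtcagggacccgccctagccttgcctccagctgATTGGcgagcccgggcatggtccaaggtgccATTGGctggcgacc
Insig1: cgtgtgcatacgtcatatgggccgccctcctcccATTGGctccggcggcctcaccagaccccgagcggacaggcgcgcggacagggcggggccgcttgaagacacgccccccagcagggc
Srebf2: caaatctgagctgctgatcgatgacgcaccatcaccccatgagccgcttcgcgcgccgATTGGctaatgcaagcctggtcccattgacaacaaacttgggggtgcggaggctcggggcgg
Mt1: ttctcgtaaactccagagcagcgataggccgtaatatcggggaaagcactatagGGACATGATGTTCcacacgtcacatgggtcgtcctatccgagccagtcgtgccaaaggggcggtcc
CCAAT stood in 13 of the 14 listed sterol genes that the promoter table holds and in 37.5% of all 27025 symbols with a promoter. It also stood in 11 of 16 glucocorticoid response genes. The sterol element core stood in 1 of the 14, Hmgcs1, and in 1 of the 16, Fkbp4, against 1.22% of all, and the palindrome in Mt1 and Sgk1 among 16 glucocorticoid genes, against 0.440% of all. A match is a run of letters and not a shown site.

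Of 20 sterol genes 19 entered, of which 0 were 2-fold higher and 13 were 2-fold lower against the background of 23.4%, with a median of -1.39. With 10 TPM in both groups the median was -1.24 over 16 genes. Of these, 0 were 2-fold higher and 10 lower, against 9.36 and 10.8% of all such genes. The list held 0.0955% of TPM at the striatum median and 0.234% at the SVZ median. Srebf2 (chromosome 15, 82147181 to 82205379), which encodes SREBP2, stood at 0, 13.4 and 72.8 TPM in striatum and 0, 97.1 and 422 TPM in SVZ cells (lowest, median and highest). It was detected in 7 of 13 and 63 of 76 cells, with a log2 difference of -2.49 and a pair share of 17.9%. The highest striatum cell lay below the SVZ median, and both OStr cells were at 0. Insig1, which holds SREBP in the endoplasmic reticulum, had means of 47.9 and 202 TPM. Along the pathway Hmgcs1, which makes HMG-CoA, had means of 47.02 and 164 TPM, Idi1, an isoprenoid isomerase, 57.01 and 183 TPM, Fdft1, the squalene synthase, 59.6 and 233 TPM, and Msmo1, a sterol oxidase, 411 and 799 TPM. Hmgcs1 and Idi1 were each detected in 4 striatum cells. Without OGStr replicate 9 the log2 difference of Hmgcs1 went from -1.78 to -2.48, without OGStr replicate 1 that of Idi1 from -1.66 to -2.81, and without OStr replicate 21 that of Insig1 from -2.05 to -2.73. Mvk, the mevalonate kinase, was listed at 0 in all striatum cells and detected in 17 of 76 SVZ cells. Enzymes of fatty acid desaturation and elongation outside the list were also among the low pair shares: Elovl5 had means of 364 and 770 TPM with a pair share of 16.6%, and Scd2 229 and 492 TPM with 18.2%. The OStr cells had 718 and 678 TPM of Scd2, above the SVZ mean, while the OGStr mean was 143 TPM.

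**Figure D4:**
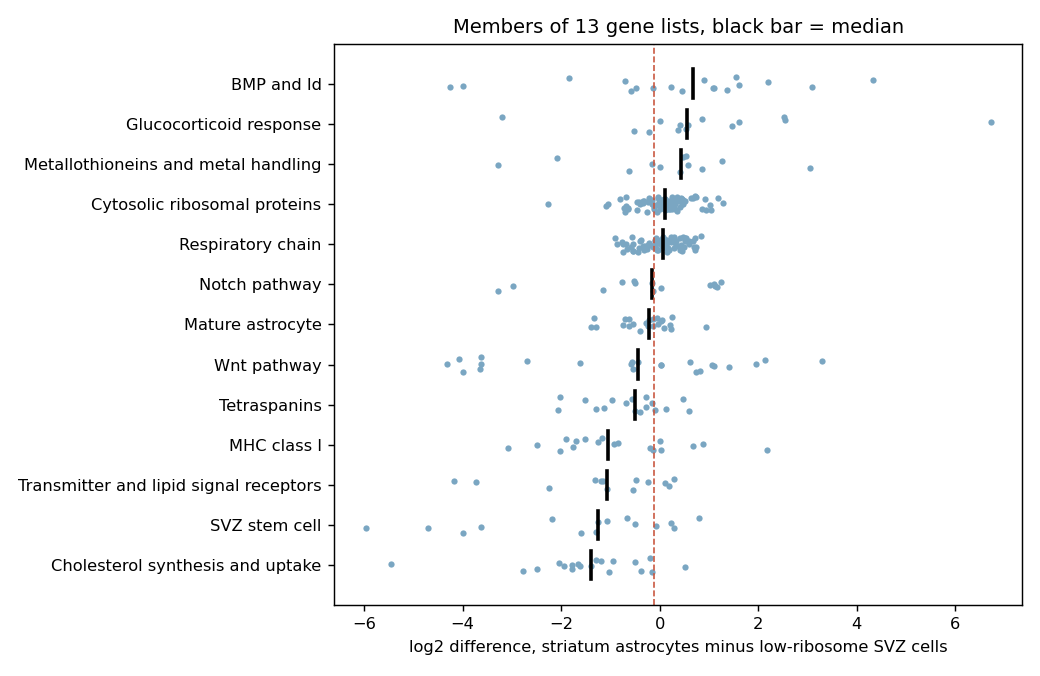
Log2 difference, striatum astrocytes minus low-ribosome SVZ cells, of the members of 13 gene lists that entered, with black bars at the list medians and a dashed line at the all-gene median of -0.11. The sterol list has its median at -1.39 and the BMP and Id list at 0.67.

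SVZ stem cell genes were lower in striatum astrocytes where they differed. Of 21 genes 15 entered, of which 0 were 2-fold higher and 9 were 2-fold lower, against all-gene shares of 15.7 and 23.4%, with a median of -1.26. Over the 10 genes with 10 TPM in both groups the median was -0.57. Thbs4 (chromosome 13, 92751590 to 92794818), a thrombospondin made in the SVZ, was listed at 0 in all 13 striatum cells and detected in 10 of 76 SVZ cells at up to 1493 TPM. With 0 of 13 cells allowing up to 23.1% and 13.2% of SVZ cells positive, a difference in Thbs4 was not detectable at this number of cells. Igfbp5 (chromosome 1, 72857932 to 72874884), which binds insulin-like growth factors, was detected in 2 of 13 striatum cells at up to 7.97 TPM and in 35 of 76 SVZ cells at up to 241 TPM. Sfrp5, a secreted Wnt inhibitor, was detected in 1 and 26 cells, and Vim, which encodes vimentin, in 1 and 14 cells. Fabp7, a fatty acid binding protein of radial glia, was detected in 4 of 13 and 36 of 76 cells, with means of 51.4 and 237 TPM. Vcam1, an adhesion molecule of SVZ stem cells, stood at 0, 121 and 436 TPM in striatum and 0, 381 and 1326 TPM in SVZ cells, with a pair share of 19.9%.

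Other genes of the stem cell list did not separate the groups. The transcription factors Sox2 (65.03 and 52.98 TPM), Nr2e1 (86.7 and 122 TPM) and Hopx (18.4 and 19.6 TPM) had close means. Hopx was detected in only 2 striatum cells, and without OGStr replicate 9 its log2 difference went from -0.08 to -1.30. Gfap, the glial filament, was detected in 3 of 13 striatum and 13 of 76 SVZ cells. Its striatum mean of 108 TPM came mainly from OStr replicate 4, at 1074 TPM, and the OGStr mean was 30.5 TPM against 61.5 TPM in SVZ. Nes, which encodes nestin, was listed at 0 in all 89 cells. Egfr, the receptor of activated stem cells, is on the growth factor receptor list instead and was lower in striatum. It was detected in 3 of 13 and 19 of 76 cells. Its log2 difference was -1.64 and ran from -2.94 to -0.36 over the alternatives of the closing section.

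**Figure D5:**
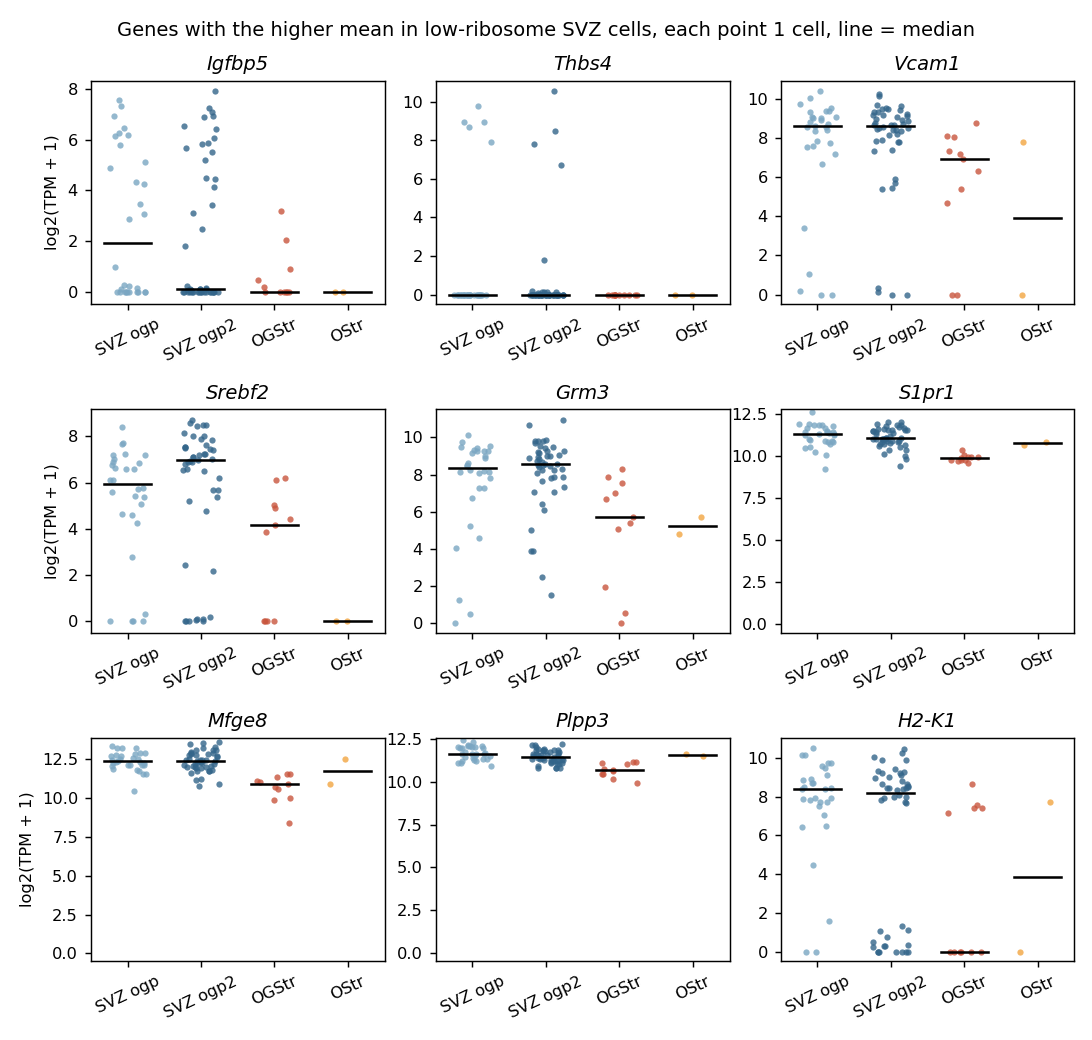
Level of 9 genes with the higher mean in low-ribosome SVZ cells, as log2(TPM + 1), in each low-ribosome SVZ cell (ogp and ogp2) and each OGStr and OStr cell. Black lines are medians. Thbs4 is listed at 0 in every striatum cell and detected in 10 low-ribosome SVZ cells, and S1pr1 is expressed in every cell shown, at a lower mean in striatum.

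Wnt ligands were lower and the rest of the pathway was mixed. Wnt7a was detected in 2 of 13 striatum cells and 42 of 76 SVZ cells, with means of 6.25 and 89.3 TPM, a log2 difference of -3.64 that became -5.58 without OGStr replicate 16. Wnt7b was detected in 4 and 49 cells, with means of 15.9 and 108 TPM. Its striatum mean came mostly from OStr replicate 4, at 173 TPM, and the OGStr mean was 3.06 TPM. Of 45 Wnt genes 23 entered, with 6 2-fold higher and 8 2-fold lower, against all-gene shares of 15.7 and 23.4%, and a median of -0.44. Over the 9 with 10 TPM in both groups the median was 0.02. Of these, 1 was 2-fold higher and 1 lower, near the 9.36 and 10.8% of all such genes. Tcf7l2, a transcription factor at the end of the pathway, was detected in all 13 striatum cells and 62 of 76 SVZ cells, with means of 244 and 117 TPM. Apc, a scaffold of the complex that destroys beta-catenin, was detected in 3 and 44 cells. For the Notch pathway 14 of 24 genes entered, with 5 2-fold higher and 3 lower, against all-gene shares of 15.7 and 23.4%, and a median of -0.15. Notch1 (36.4 and 35.7 TPM), Notch2 (32.8 and 36.6 TPM) and the target Hes5 (667 and 738 TPM) had close means. Hes1, another target, was detected in 1 of 13 striatum cells, OStr replicate 21 at 519 TPM, and in 38 of 76 SVZ cells. Hey2 was detected in 8 of 13 and 8 of 76 cells.

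Several receptors for transmitters and lipid signals had lower levels in striatum astrocytes. S1pr1, a receptor for sphingosine 1-phosphate, was expressed in every cell, at 1086 ± 327 TPM (SD, n = 13 cells) in striatum and 2468 ± 985 TPM (SD, n = 76 cells) in SVZ with a pair share of 6.98%. The highest striatum cell, an OStr cell at 1879 TPM, lay below the SVZ median of 2267 TPM. Grm3, a metabotropic glutamate receptor, stood at 0, 51.1 and 318 TPM in striatum and 0, 364 and 1973 TPM in SVZ, with a log2 difference of -2.24. Gabrg1, a GABA-A receptor subunit, had means of 90.4 and 225 TPM, and Ednrb, an endothelin receptor, 179 and 376 TPM. Of the 22 receptor genes 13 entered, with 0 2-fold higher and 7 lower, against all-gene shares of 15.7 and 23.4%, and the median was -1.07. Over the 11 with 10 TPM in both groups the median was -0.55. Of these, 0 were 2-fold higher and 5 lower, against 9.36 and 10.8% of all such genes. Growth factor receptors did not share this: 9 of 18 entered, with 1 higher, 1 lower (Egfr, given above) and a median of 0.15. Fgfr3, a receptor for fibroblast growth factors that is on the mature astrocyte list instead, had means of 656 and 342 TPM.

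Several abundant membrane and secreted proteins were also lower. The 88 genes detected in every striatum and every low-ribosome SVZ cell had a median of -0.34, below the -0.11 of all genes. Mfge8, a secreted bridge to dying cells, was at 2181 ± 1369 TPM (SD, n = 13 cells) and 5748 ± 2408 TPM (SD, n = 76 cells), with a pair share of 8.20%, and OStr replicate 21, at 5897 TPM, was the only striatum cell above the SVZ median of 5269 TPM. Tspan7, a tetraspanin, was at 3893 ± 1258 and 7640 ± 2965 TPM with a pair share of 11.6%. Plpp3, a lipid phosphatase, stood at 1911 ± 660 and 3130 ± 866 TPM (12.04%), and Atp1b2, a sodium pump subunit, at 1408 ± 569 and 2786 ± 1064 TPM (13.2%). Ptn, a growth factor, and Gpm6a, a membrane glycoprotein, each had a pair share of 13.7%. Slc7a10, an amino acid transporter, had means of 360 and 886 TPM. Of 19 tetraspanins 17 entered, with 0 higher and 5 lower 2-fold, near the all-gene share of 23.4%, and a median of -0.51. Cd81 had means of 3772 and 5605 TPM. The connexins differed in direction. Gjb6 (chromosome 14, 57123303 to 57133611), which encodes connexin 30, stood at 559, 1514 and 2964 TPM in striatum and 0, 759 and 4236 TPM in SVZ (log2 difference 0.93, pair share 77.2%), whereas Gja1, connexin 43, was at 2156 ± 745 and 3437 ± 1487 TPM (-0.67, pair share 22.1%).

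Genes of class I antigen presentation were more often lower than higher. Of 21 genes 18 entered, of which 1 was 2-fold higher and 9 were 2-fold lower, against all-gene shares of 15.7 and 23.4%, with a median of -1.05. Over the 13 genes with 10 TPM in both groups the median was -0.84. Of these, 0 were 2-fold higher and 5 lower, against 9.36 and 10.8% of all such genes. B2m, the light chain of class I molecules, was detected in 9 of 13 and 54 of 76 cells, with means of 136 and 552 TPM, and H2-K1, a heavy chain, in 6 and 61 cells, with means of 98.7 and 372 TPM. One SVZ cell held 7622 TPM of B2m. The joint share of the list was 0.118% at the striatum median and 0.212% at the SVZ median, with a pair share of 10.6%. Of 30 interferon response genes 20 entered with 2 higher and 11 lower, against all-gene shares of 15.7 and 23.4%, and a median of -1.26. But over the 8 genes with 10 TPM in both groups the median was 0.02. Of these, 1 was 2-fold higher and 1 lower, near the 9.36 and 10.8% of all such genes. Without OStr replicate 4 the median of the list was -2.10.

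Core metabolism lay near the level of all genes. Of 77 respiratory chain genes, all of which entered, 0 were 2-fold higher and 0 lower, against all-gene shares of 15.7 and 23.4%, with a median of 0.07. The 34 proteasome genes had 1 higher, 3 lower and a median of 0.00, and the 30 splicing factors 0 higher, 3 lower and a median of 0.03. Glycolysis had a median of -0.17 with 0 of 22 genes higher and 2 lower, and fatty acid oxidation -0.14 with 0 of 21 higher and 2 lower. Ribosomal protein genes, which the choice of SVZ cells used, had a median of 0.12 over 83 genes, with 4 higher and 3 lower.

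Single genes were named by a rule on size, detection and direction in both SVZ series, which 13 genes met for higher and 60 for lower. Of the 12 higher genes with a proper name, Slc37a4 (chromosome 9, 44396852 to 44402968), the glucose 6-phosphate transporter of the endoplasmic reticulum, had the highest pair share, at 87.04%. It was detected in 11 of 13 striatum and 18 of 76 SVZ cells, with means of 566 and 51.6 TPM and a log2 difference of 3.43. Etnppl, which breaks down phosphoethanolamine, was detected in 12 and 40 cells, with means of 933 and 154 TPM and a pair share of 86.6%. Mrpl41, a mitochondrial ribosome protein, had means of 978 and 117 TPM. All 11 OGStr cells held it and both OStr cells were listed at 0. Hist2h2aa2 is a histone H2A gene with near-identical copies, so its value is uncertain, and its means were 138 and 15.98 TPM with a pair share of 79.3%. Arl4d, a small GTPase, had means of 164 and 7.55 TPM with a pair share of 78.8%. Acsf2, an acyl-CoA synthetase, had means of 113 and 11.9 TPM (77.4%), and Bub3, a spindle checkpoint protein, 183 and 22.3 TPM (74.9%). The others beside Id1 were Slc22a18, Mtpap, Nbdy and Sh3bp1, with pair shares of 73.3, 73.1, 71.4 and 69.1%. Without OStr replicate 21 the log2 difference of Slc22a18 went from 2.33 to 1.62, and without OStr replicate 4 that of Nbdy went from 2.26 to 1.63.

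The 15 lower genes with the lowest pair shares included Grm3, Wnt7a, Wnt7b and Nr3c2 as given above. Bhlhe40, a clock-linked repressor, was detected in 2 of 13 striatum and 47 of 76 SVZ cells, with means of 27.9 and 168 TPM. Hexa, a lysosomal hexosaminidase subunit, was detected in 2 and 45 cells, with means of 35.9 and 187 TPM. Slbp, which binds the histone mRNA stem-loop, was detected in 4 and 43 cells, with means of 1.62 and 56.6 TPM. Sun1, Mterf3, Magt1, Rasa3, Fcf1, Chchd7, Psmc4 and Vps35l were each detected in 1 to 4 striatum cells and in 33 to 49 SVZ cells. Because so few striatum cells held these genes, their folds depend on single cells: without OGStr replicate 22 the log2 difference of Bhlhe40 went from -2.54 to -7.19, and without OGStr replicate 13 that of Hexa from -2.35 to -4.02.

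Among genes outside the rule, chosen after their values were seen for a high pair share, were Csrp1 and Fam107a, which bind the actin cytoskeleton, and Ezr, which links it to the membrane of fine astrocyte processes. Csrp1 had means of 815 and 287 TPM with a pair share of 86.5%, Fam107a 571 and 182 TPM with 85.4%, and Ezr 539 and 188 TPM with 83.1%. Pnpla2, a triglyceride lipase, and Gpt2, a mitochondrial alanine transaminase, had pair shares of 80.5 and 80.4%.

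The 4 cortex astrocytes, which share the gate, age label and table of the striatum cells, are set beside them. They share the SVZ cells as reference and are too few for more than their means. Gjb6 had a mean of 1828 TPM in cortex and 1689 TPM in striatum. Id3 stood at 813 TPM in cortex and 2650 TPM in striatum, Id1 at 33.9 and 629 TPM, Id4 at 263 and 737 TPM and Tsc22d3 at 273 and 1342 TPM. The cortex means of Id3 and Id1 came from 1 cell, OCx replicate 5, and the other 3 cells were listed at 0. Srebf2 was at 90.6 TPM in cortex, 19.4 TPM in striatum and 114 TPM in SVZ, and the sterol list held 0.362% of TPM at the cortex median. Wnt7a, held by the same 1 cell, had a mean of 66.5 TPM in cortex against 6.25 TPM in striatum, and S1pr1 one of 2061 against 1086 TPM. Mt1 stood at 4001 TPM, Cdkn1a, detected in 1 cell, at 56.7 TPM and B2m at 293 TPM in cortex. Crym, which binds thyroid hormone, was listed at 0 in the 4 cortex cells, and had means of 1686 TPM in striatum and 2497 TPM in SVZ. Igfbp2 was listed at 0 in all 89 striatum and low-ribosome SVZ cells and had a mean of 964 TPM in cortex.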

How the data were processed

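Per the submitters' processing notes, reads were handled with STAR 2.4.0g1 and RSEM 1.2.18 on mm10, and the gene annotation is not given in the sources used here. The deposited values are TPM, 1 column per cell, as read from their decimals and column sums. Columns were rescaled to a sum of 1000000, including 4 low-ribosome SVZ columns whose deposited sums were 190068 or less. Identifiers were given symbols (42405), and positions are from GENCODE on GRCm38. R was summed over 89 ribosomal protein symbols. Means, medians, cells with 1 TPM or more and pair shares were computed with pandas 2.3.3 and numpy 2.4.6, and Clopper-Pearson intervals with scipy 1.17.1. No doublet caller was run, since the cells were picked singly by hand per the labels' protocols. The code was tested on simulated data.

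The SVZ cells, gene lists and tests were chosen with earlier results of these data known. Single higher genes needed a mean of 50 TPM, detection in 7 striatum cells and a log2 difference of 2 against both SVZ series. Lower genes needed 50 TPM, detection in 30% of SVZ cells and -2, and up to 15 per direction were ranked by pair share. In addition, fixed genes, the 5 markers and up to 4 genes per list were eligible, and further genes were singled out after their values were seen. Promoters are RefSeq's on GRCm38.p6. Bulk samples were not analysed here.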

Additional observations from a re-analysis of the deposited data

Results flagged for a closer look

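The OGStr and OStr cells were set against the low-ribosome SVZ mean for 120 chosen genes. For 3 of the 120, every OGStr cell lay on one side of this mean and both OStr cells on the other. The difference was not tested, and the count says nothing about genes outside the 120. The OStr mean of Id3 was 238 TPM and the OGStr mean 3089 TPM. The OStr mean of Mrpl41 was 0 TPM and the OGStr mean 1156 TPM. The OStr mean of Scd2 was 698 TPM and the OGStr mean 143 TPM. Among the 4 cortex cells the highest value stood far from the others for 4 of 10 genes: Id1 at 135.5 TPM, Id3 at 3254 TPM, Cdkn1a at 227 TPM and Wnt7a at 266 TPM. The other 3 cells were listed at 0 for each of these genes. Chance flags about 1 in 20 groups of continuous values, a rate that does not hold here, where any value above 0 is far from the rest.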

How the results depend on the processing

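No paired analysis was possible because the numbers in the cell names only name cells and no result comes from a test. The count of genes at least 4-fold higher, 463, was 48 with 10 TPM required in both groups, 51 with a pseudocount of 10 TPM and 749 against the ogp cells alone. The count of genes at least 4-fold lower, 1063, was 75 with 10 TPM in both groups, 153 with a pseudocount of 10 TPM, 103 with the mean over cells of log2(TPM + 1) and 2226 with no filter. The SVZ stem cell median, -1.26, was -0.57 with 10 TPM in both groups. The BMP and Id median ranged from -0.061 to 0.76 when single striatum cells were left out. Of 53 list medians 38 changed sign under 1 alternative or more. The sterol, stem cell, class I, transmitter receptor, tetraspanin, glucocorticoid, metal and respiratory chain medians kept theirs. Those at 1 or beyond that changed sign were the interferon list (0.024 with 10 TPM in both groups), the neuroblast markers (-1.06 against all SVZ cells and -0.30 with no filter) and the oligodendrocyte markers (0.27 with the mean of logs), and the last lists have 1 and 2 genes. Why was not tested, except that fewer genes enter under the stricter filter. The mature astrocyte median of -0.22 ran from -0.23 to 0.01, above 0 only with the mean of logs. The mean of logs moved the median of all genes from -0.11 to 0.23, and taking out Gm42418, Rn7s1 and Rn7s2 moved it to -0.04. The sterol median ran from -1.69 to -0.88 over these alternatives.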
